A study of Homo sapiens with 4 samples.

Results

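The annexins are a family of proteins that attach to negatively charged phospholipids when calcium is present, through a conserved core of repeats. They take part in membrane repair, in vesicle traffic and in the assembly of scaffolds under the plasma membrane, and several act outside the cell in inflammation and in plasmin formation. Breast epithelial and carcinoma cells are known to make many of them. The messenger RNA of 10 annexin genes (ANXA1, ANXA2, ANXA3, ANXA4, ANXA5, ANXA6, ANXA7, ANXA9, ANXA10 and ANXA11) was described here in lapatinib-resistant breast cancer clones and their parental cells. The members were the probes whose RefSeq accession maps to one of these genes, which gave 13 probes among the 23680 named probes (16422 genes) of the array. Of these, 12 probes and 9 genes reached a signal of 100 on at least 1 array and were compared, and ANXA10 did not reach it.

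SkBr3 and BT474 are HER2-amplified breast cancer cell lines, and lapatinib is a kinase inhibitor of EGFR and HER2. The samples were parental SkBr3 cells given vehicle, a lapatinib-resistant SkBr3 clone, parental BT474 cells given vehicle and a lapatinib-resistant BT474 clone, all kept in DMEM/F12 medium, and both clones had been selected in rising lapatinib up to 1 μM and are labelled as treated with the drug. Each of the 4 was measured on 1 one-colour (Cy3) array of 41000 probes, so each difference below is between 2 arrays, there is no replicate check, and each resistant state is represented by 1 clone. Resistance, the presence of the drug and the choice of clone cannot be told apart. The labels and the study's text number the clones differently, so they are called the SkBr3 clone and the BT474 clone here.

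Between 66.6% and 74.0% of probes were well above background, the scanner software's test of a signal against its local background, and no spot was saturated. The SkBr3 clone was hybridised on a slide of its own and the other 3 arrays on another, so slide and clone cannot be told apart in the SkBr3 pair. Luminal epithelial markers were well above background for 7 or 8 of 8 genes on every array, the missing one being CDH1 (E-cadherin) in both SkBr3 arrays. ERBB2, the gene of HER2, had signals of 238524 and 118706 in SkBr3 and its clone, and 256346 and 237327 in BT474 and its clone. Relative to each array's 75th percentile, ERBB2 changed by log2 -1.90 in the SkBr3 clone and -0.65 in the BT474 clone. The summed luminal signal over that percentile was 825 in SkBr3, 487 in its clone, 784 in BT474 and 522 in its clone. None of the 3 fibroblast genes with a probe was above background, nor was PTPRC, the pan-leukocyte gene.

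Levels are given as the processed signal of a probe (background-subtracted intensity), and changes as log2 differences after each array was set to the 75th percentile of its probes, which lay between 1115 and 2074. The scanner software's own spot error amounted to about 0.20 on the log2 scale for a difference between 2 bright spots. That error was nearly the same for all bright probes, so it is no measured spread of a given probe, and it does not cover variation between cultures. Probes spotted 10 times had a median SD over their spots of 0.075 to 0.081 on the log2 scale on each array. For genes with several probes (3566 genes), the probes of 1 gene differed by a median of 0.28 in their log2 change in either clone.

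**Figure D1:**
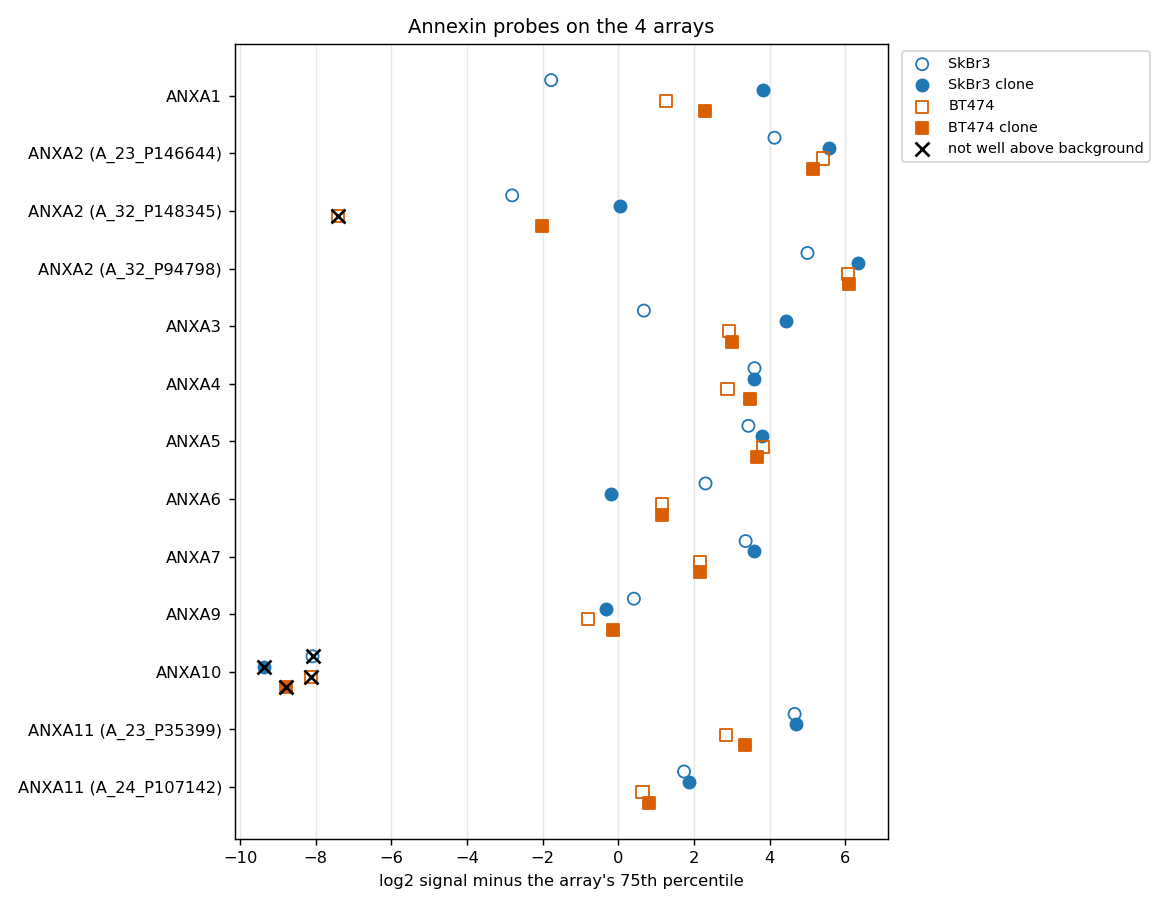
Scaled signal (log2 signal minus the array's 75th percentile, x axis) of the 13 annexin probes on the 4 arrays, circles for SkBr3 and squares for BT474, open for parental cells and filled for clones, with a cross where the signal was not well above background. The ANXA1, ANXA3 and ANXA6 points of SkBr3 and its clone lie far apart (log2 changes of 5.60, 3.76 and -2.51), and all 4 ANXA10 points are at background.

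The members that changed at least 2-fold in the SkBr3 clone were ANXA1, ANXA2 and ANXA3, which were higher, and ANXA6, which was lower. The 250 bases before their transcription starts (RefSeq, GRCh38.p14, 5′ to 3′ on the gene's strand) are shown to place these genes, with matches to 4 short motifs in capitals: the NF-kB consensus, AP-1 (TGANTCA), the TATA box (TATAAA) and the CCAAT box (CCAAT), each on both strands. ANXA1 is read from chr9:73151615-73151864 (plus strand), ANXA2 from chr15:60397987-60398236 (minus), ANXA3 from chr4:78551520-78551769 (plus) and ANXA6 from chr5:151157780-151158029 (minus).
ANXA1: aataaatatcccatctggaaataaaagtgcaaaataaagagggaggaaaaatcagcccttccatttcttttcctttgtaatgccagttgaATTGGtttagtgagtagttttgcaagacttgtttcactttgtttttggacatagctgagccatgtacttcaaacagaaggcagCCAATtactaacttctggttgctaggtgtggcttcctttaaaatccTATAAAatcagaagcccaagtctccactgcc
ANXA2: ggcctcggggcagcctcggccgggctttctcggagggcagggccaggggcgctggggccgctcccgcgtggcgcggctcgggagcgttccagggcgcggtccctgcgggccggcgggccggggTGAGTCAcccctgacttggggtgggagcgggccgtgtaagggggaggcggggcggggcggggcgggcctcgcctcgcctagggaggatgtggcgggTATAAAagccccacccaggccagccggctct
ANXA3: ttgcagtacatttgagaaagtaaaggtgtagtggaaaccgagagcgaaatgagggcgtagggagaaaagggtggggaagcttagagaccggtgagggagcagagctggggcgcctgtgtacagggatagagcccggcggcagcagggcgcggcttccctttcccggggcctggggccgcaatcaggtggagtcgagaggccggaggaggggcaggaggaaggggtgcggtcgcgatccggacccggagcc
ANXA6: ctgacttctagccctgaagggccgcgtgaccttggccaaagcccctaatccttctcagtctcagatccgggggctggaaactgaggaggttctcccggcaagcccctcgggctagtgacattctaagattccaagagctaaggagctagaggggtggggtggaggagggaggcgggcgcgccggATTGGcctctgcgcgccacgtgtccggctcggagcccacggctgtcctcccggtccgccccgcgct
The ANXA1 window, with a GC content of 38.4%, held a TATA box beginning 31 bases before the start and CCAAT boxes 160 and 77 bases before it. The ANXA2 window, 78.0% GC, held a TATA box at the same distance, an AP-1 match 127 bases before the start and 3 copies of the GC box GGGCGG, which is left in lower case. None of these motifs was found in the ANXA3 window (64.0% GC), and the ANXA6 window (65.6% GC) held a CCAAT box 66 bases and a GC box 12 bases before the start.

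The study asked about NF-kB, whose consensus occurred in 9.96% of all 35116 promoter windows of this length. It was absent from the 4 windows shown and present upstream of ANXA7 and of a second, downstream start of both ANXA4 and ANXA6, that is in 3 of the 14 windows of the 10 annexin genes. For the other motifs the shares of all windows were 6.57% for AP-1 (1 of the 14 annexin windows), 42.6% for the GC box (7 of 14), 32.0% for the CCAAT box (4 of 14) and 10.7% for the TATA box (4 of 14). The motifs were chosen after the expression values were known, and a match is a match of letters only.

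ANXA1, the glucocorticoid-induced annexin that acts through formyl peptide receptors to dampen inflammation, gave the largest change of the family in the SkBr3 clone. Its probe (A_23_P94501) had signals of 326 in SkBr3, 29315 in the SkBr3 clone, 2759 in BT474 and 8246 in the BT474 clone, all well above background. Parental SkBr3 was the lowest of the 4 and its clone the highest, with both BT474 arrays between them. After scaling, ANXA1 was 48.4-fold higher in the SkBr3 clone (log2 5.60, spot error 0.20) and 2.06-fold higher in the BT474 clone (log2 1.04, spot error 0.20). In the SkBr3 pair 99.0% of the 12159 genes tested had a smaller (less positive) change, and in the BT474 pair 91.1% did. Taking the brightest probe of each gene, ANXA1 was the only tested member at least 2-fold higher in both clones, where 3.07% of all genes were (a dim ANXA2 probe, described next, was as well). The BT474 value lies at the 2-fold line, within the spot error of it, and with each array set to its median in place of its 75th percentile it was 0.84.

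ANXA2, which pairs with S100A10 at the cell surface as a receptor for plasminogen and its activator, was measured by 3 probes. The brightest (A_32_P94798) had signals of 35702 in SkBr3, 169182 in the SkBr3 clone, 78575 in BT474 and 114771 in the BT474 clone. It was 2.55-fold higher in the SkBr3 clone (log2 1.35) and level in the BT474 pair (log2 0.01). A second bright probe (A_23_P146644) had signals of 19514, 98922, 49245 and 59055 in the same order, and log2 changes of 1.45 and -0.27. Both bright probes thus rose past 2-fold in the SkBr3 clone and stayed within it in the BT474 clone.

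The dim ANXA2 probe (A_32_P148345) behaved differently in the BT474 pair. Its signals were 159 in SkBr3, 2132 in the SkBr3 clone, 6.84 in BT474, where it was not well above background, and 412 in the BT474 clone. It was 7.19-fold higher in the SkBr3 clone (log2 2.85) and at least 17.8-fold higher in the BT474 clone, where the bound sets the clone against the lowest signal well above background on the parental array. This last value disagrees with the level reading of both bright probes in the BT474 pair, and the 3 probes carry the same RefSeq accession.

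ANXA2 has processed pseudogenes of near-identical sequence, and the array carries a probe each for ANXA2P1 and ANXA2P3, so the signals of the gene and its copies are uncertain. The ANXA2P1 probe had signals of 3961, 37189, 11304 and 16877 in SkBr3, its clone, BT474 and its clone. The ANXA2P3 probe had signals of 281, 3529, 836 and 1287 in that order. Both followed the pattern of the bright ANXA2 probes, with log2 changes of 2.34 and 2.75 in the SkBr3 clone and of 0.04 and 0.09 in the BT474 clone. Whether they measured pseudogene or ANXA2 RNA was not tested.

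**Figure D2:**
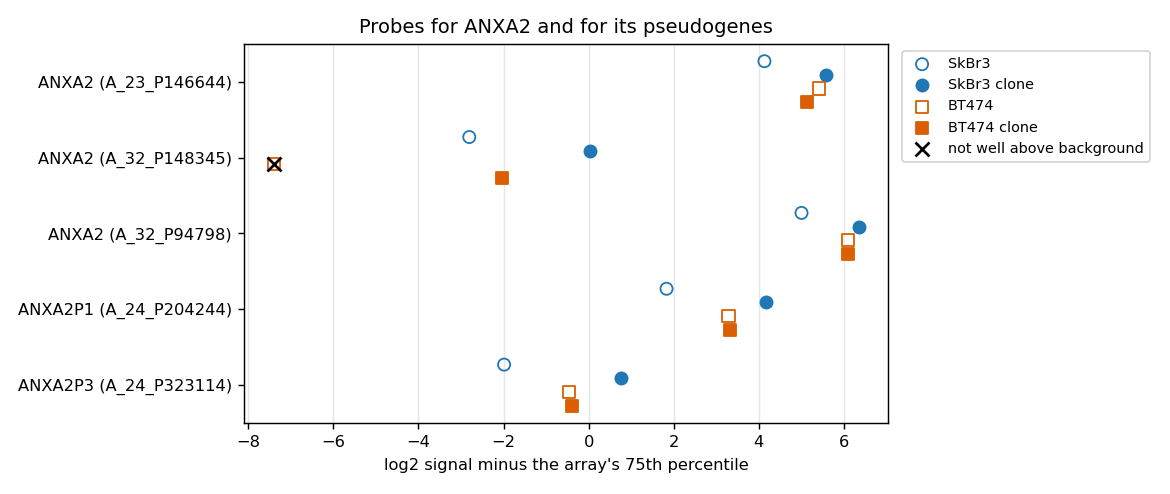
Scaled signal (log2 signal minus the array's 75th percentile, x axis) of the 3 ANXA2 probes and of the ANXA2P1 and ANXA2P3 probes on each array. All 5 are higher in the SkBr3 clone than in SkBr3 (log2 changes of 1.35 to 2.85), and A_32_P148345 alone of the 5 differs by over 2-fold in the BT474 pair, from a parental signal not well above background (cross).

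ANXA3, an annexin of neutrophil granules that is also made by epithelial tumours, gave the second largest difference in the SkBr3 clone. The probe (A_23_P121716) had signals of 1781 in SkBr3, 44796 in the SkBr3 clone, 8777 in BT474 and 13464 in the BT474 clone. As with ANXA1, parental SkBr3 was lowest, the SkBr3 clone highest, and the BT474 arrays lay between and close together. The change was 13.5-fold in the SkBr3 clone (log2 3.76), with 97.1% of genes below it, and log2 0.08 in the BT474 clone.

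ANXA6, the member with a duplicated core, recruits the Ras GTPase-activating protein RASA1 and protein kinase C alpha to the membrane. It was the only tested annexin at least 2-fold lower in a clone. Its signals (A_23_P357104) were 5514 in SkBr3, 1799 in the SkBr3 clone, 2579 in BT474 and 3726 in the BT474 clone. SkBr3 was the highest array and its clone the lowest, and both BT474 arrays gave almost the same scaled value. ANXA6 was 5.70-fold lower in the SkBr3 clone (log2 -2.51, with 3.59% of genes below it) and differed by log2 -0.01 in the BT474 pair.

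The other 5 tested members stayed within 2-fold in both clones. ANXA4, an epithelial annexin that forms lattices on damaged membranes, had signals of 13533, 25061, 8580 and 18956 in SkBr3, its clone, BT474 and its clone. Its log2 changes were -0.01 and 0.61 in the SkBr3 and BT474 clones, so only the BT474 difference exceeded the spot error. ANXA5, the protein used to stain phosphatidylserine on dying cells, gave 12095, 28926, 16537 and 21454, with log2 changes of 0.36 and -0.16. The BT474 change was smaller than the spot error. ANXA7 (synexin), first known for fusing secretory granules, gave 11498, 24979, 5177 and 7446 and log2 changes of 0.22 and -0.01.

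ANXA9, an atypical member that has lost its calcium-binding sites, differed in opposite directions in the pairs without reaching 2-fold. Its signals were 1484 in SkBr3, 1647 in the SkBr3 clone, 663 in BT474 and 1515 in the BT474 clone. The log2 changes were -0.74 and 0.65, each above the spot error, and the difference between the pairs was not tested. ANXA11, which tethers RNA granules to lysosomes, had 2 probes. The brighter (A_23_P35399) had signals of 28219, 54214, 8336 and 17261 in the usual order, and log2 changes of 0.05 and 0.51. The other (A_24_P107142) had 3720, 7537, 1805 and 2945, and log2 changes of 0.12 and 0.17. In the BT474 pair the brighter probe exceeded the spot error and the other did not.

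ANXA10, a gastric annexin, was the one member without a measured level. Its signals were 4.11, 3.16, 4.16 and 3.84 on the SkBr3, SkBr3 clone, BT474 and BT474 clone arrays, none well above background, while the lowest signals that were well above it lay between 13.3 and 16. No fold is given for it.

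**Figure D3:**
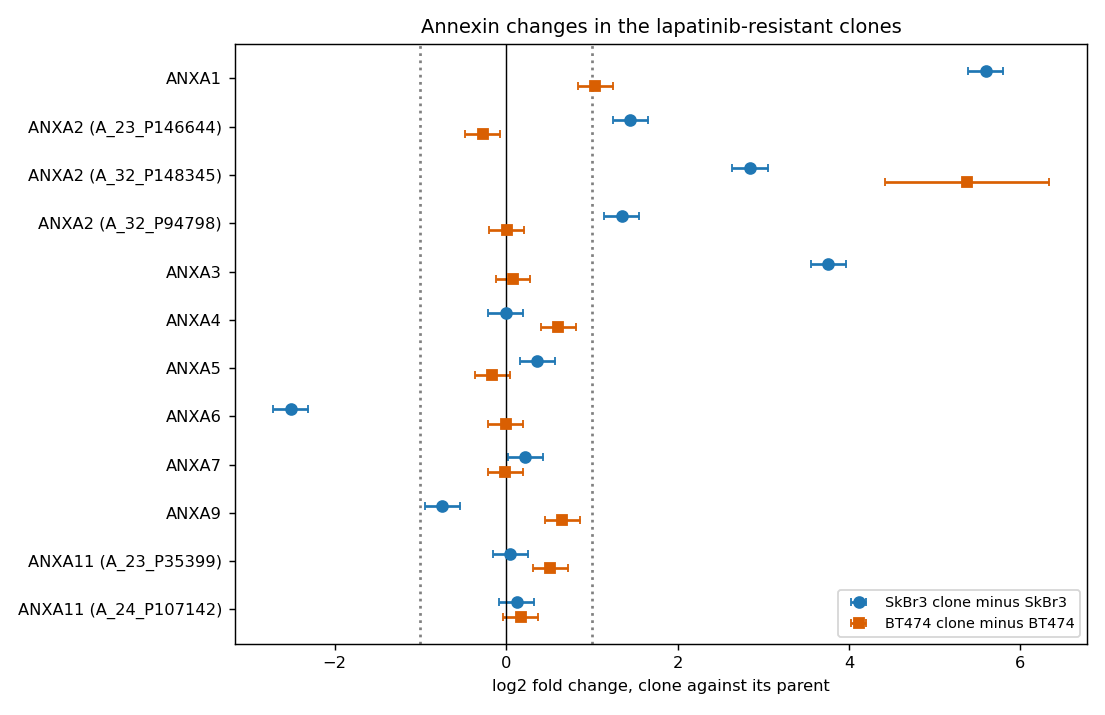
log2 fold change of each clone against its parent (x axis) for the 12 annexin probes compared, with bars for the spot error of the scanner software and dotted lines at 2-fold. ANXA1 stands at 5.60 and 1.04, ANXA3 at 3.76 and 0.08, ANXA6 at -2.51 and -0.01 in the SkBr3 and BT474 clones, and the BT474 point of A_32_P148345 is drawn from a parental signal not well above background.

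Counted over the family, 3 of 9 tested genes were at least 2-fold higher in the SkBr3 clone, where 14.1% of all 12159 genes were, and 1 of 9 was at least 2-fold lower, against 14.4% of all genes. In the BT474 clone 1 of 9 was at least 2-fold higher, against 9.20% of all genes, and 0 of 9 were at least 2-fold lower, against 5.40%. The BT474 share is close to the background, and with 9 genes a share moves by much with each gene. The members' median log2 change was 0.22 in the SkBr3 clone (range -2.51 to 5.60) and 0.08 in the BT474 clone (range -0.16 to 1.04). Over all genes the medians were -0.06 and -0.09. The median size of change regardless of direction was 0.74 among the annexins and 0.56 among all genes in the SkBr3 clone, and 0.16 and 0.38 in the BT474 clone. Nothing particular to the family is drawn from these shares.

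Basal and mesenchymal markers also differed in the SkBr3 pair. Of 6 such genes, 4 were well above background in SkBr3 and 6 in its clone. The basal keratins KRT17 and KRT14 and the filament gene VIM (vimentin) had log2 changes of 5.45, 4.09 and 1.76 there, and KRT5 and CDH2 (N-cadherin) went from 9.75 and 5.17, not well above background, to signals of 426 and 49.1. FN1 (fibronectin), the brightest of the list in the SkBr3 pair, fell by 1.86, and the summed signal over the 75th percentile was 6.91 in SkBr3 and 4.41 in its clone. In BT474 and its clone 4 and 5 of the 6 were above background, KRT14 and CDH2 had log2 changes of 1.5 and 0.90, FN1 had -0.57, and KRT17 went from 10.5, not well above background, to a signal of 91.0. VIM fell by 1.52, with signals of 19393 and 9843, and the summed signal, most of it VIM, was 16.9 and 6.27. Their part in the annexin changes was not tested.

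**Figure D4:**
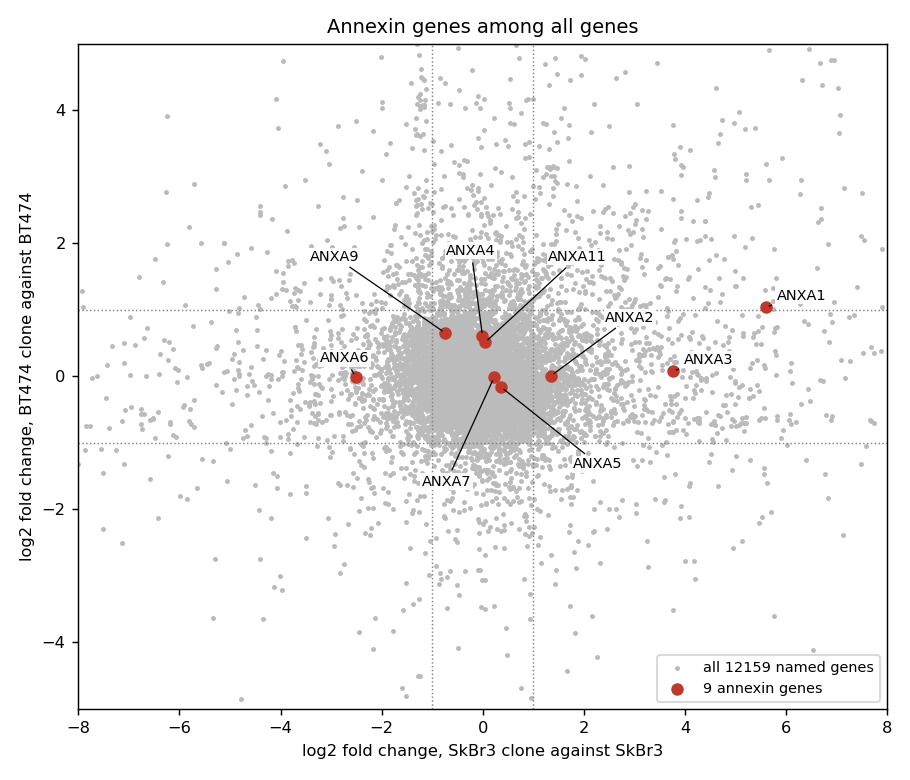
log2 fold change in the SkBr3 clone (x axis) against that in the BT474 clone (y axis) for 12159 named genes (grey) and the 9 tested annexins (red), with dotted lines at 2-fold and 109 genes beyond the axes. ANXA1 lies in the corner of genes higher in both clones, ANXA2 and ANXA3 lie to the right and ANXA6 to the left at BT474 values near 0.

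Treating the cell lines as replicates of resistance, limma with the cell line as a block called 0 of 25927 probes at an adjusted p under 0.05, and every annexin probe had an adjusted p of 1.00. That fit has 1 residual degree of freedom. At an unadjusted p under 0.05 it called 900 probes (3.47%), among them 1 of the 12 annexin probes. That was the dim ANXA2 probe A_32_P148345, whose BT474 value rests on a signal not well above background. It did not pass in the fit without the block or in the fit with the slide in place of the cell line, where 0 annexin probes did. ANXA1 did not pass it (unadjusted limma p 0.071), with log2 changes of 5.60 and 1.04.

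The parental lines themselves differed in annexin levels, in a comparison that shares its arrays with the ones above. Relative to SkBr3, BT474 had higher ANXA1 (log2 3.03), ANXA3 (2.25) and ANXA2 (1.08 and 1.28 for the bright probes, while the dim probe was not well above background in BT474). It had lower ANXA11 (-1.81 and -1.10 for its probes), ANXA9 (-1.22), ANXA7 (-1.21), ANXA6 (-1.15) and ANXA4 (-0.71). ANXA5 was closest, at 0.40 higher.

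Between the clones the order of several members was turned. The BT474 clone had less ANXA1 than the SkBr3 clone (log2 -1.53), less ANXA3 (-1.43) and more ANXA6 (1.35), each opposite in sign to the parental difference and larger than 2-fold. ANXA7 (-1.44) and ANXA11 (-1.35 and -1.05) kept the direction of the parents, and ANXA2 (-0.26 for the brightest probe), ANXA5 (-0.13), ANXA4 (-0.10) and ANXA9 (0.18) were closest. The dim ANXA2 probe, well above background in both clones, differed by -2.07. Because all of these values come from the same 4 arrays, they are arithmetic on the levels already given and not further evidence.

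The genes whose 4 values, centred on their mean, lay nearest to those of ANXA1 among 10951 genes well above background on every array were LMO2, TSPAN12, SCCPDH, FGF12 and CD44. LMO2, a transcriptional adaptor of blood cell development, was nearest (Euclidean distance 0.59 on the log2 scale over the 4 arrays), with log2 changes of 5.97 in the SkBr3 clone and 1.20 in the BT474 clone. TSPAN12, a tetraspanin (distance 0.62), had 5.79 and 0.73. SCCPDH (0.80) had 4.88 and 0.38. FGF12, a fibroblast growth factor homologue that stays in the cell (0.85), had 5.82 and 0.74, and CD44, the hyaluronan receptor (1.05), 6.43 and -0.19. With 4 arrays many genes can share a pattern, and the distance is a description.

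A list of 18 genes known to bind, receive or act beside annexins was set beside the family, and 14 of them had a probe that reached the signal minimum. In the SkBr3 clone 3 of 14 were higher by 2-fold or more and 5 were lower by as much, beside 14.1% and 14.4% of all genes. In the BT474 clone 1 was higher and 2 were lower, beside 9.20% and 5.40%. Their medians were 0.06 and 0.18. Among the receptors, the formyl peptide receptors FPR1, FPR2 and FPR3, through which ANXA1 acts, were not well above background on any array. ANXA2R, reported as an ANXA2 receptor, had signals of 185, 119, 745 and 1243 in SkBr3, its clone, BT474 and its clone, and log2 changes of -1.53 and 0.20.

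The S100 proteins bind the amino-terminal tails of annexins. S100A10, the partner of ANXA2, had signals of 20223 in SkBr3, 110514 in the SkBr3 clone, 13310 in BT474 and 25289 in the BT474 clone. Its log2 changes were 1.55 and 0.39, beside 1.35 and 0.01 for the brightest ANXA2 probe. S100A11, the partner of ANXA1, stayed within 2-fold with log2 changes of 0.31 and 0.15.

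S100A6, which binds ANXA11 and others, had signals of 211357 in SkBr3, 39.3 in the SkBr3 clone, 100996 in BT474 and 175019 in the BT474 clone. The SkBr3 clone was thus near the floor on an otherwise very bright probe, and its log2 change of -13.29 was the lowest of all 12159 genes. It rests on 1 spot, which the scanner software did not mark as an outlier. S100A4, a binder of ANXA2, had signals of 123673, 79071, 3896 and 22581 in the same order, and log2 changes of -1.54 and 2.0.

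DYSF (dysferlin), which acts with annexins in membrane repair, had signals of 68.5 in SkBr3, 17318 in the SkBr3 clone, 63.3 in BT474 and 109 in the BT474 clone. Only the SkBr3 clone was high. The log2 change there was 7.09, and 7.26 for its other probe, while in the BT474 clone the probes gave 0.25 and -0.13. AHNAK, a giant scaffold bound by ANXA2 and S100A10, had 5 probes with log2 changes of -0.85 to 0.17 in the SkBr3 clone and 0.88 to 1.66 in the BT474 clone.

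PLAT (tissue plasminogen activator), which the ANXA2 and S100A10 complex holds at the cell surface, had signals of 4.02 in SkBr3, not well above background, 387 in the SkBr3 clone, 94.5 in BT474 and 33.2 in the BT474 clone. It was at least 13.0-fold higher in the SkBr3 clone and 4.13-fold lower in the BT474 clone. PLA2G4A (cytosolic phospholipase A2), an enzyme that ANXA1 inhibits, had signals of 159, 3.09, 23.3 and 11.6 in SkBr3, its clone, BT474 and its clone. Neither clone was well above background, and it was at least 22.2-fold lower in the SkBr3 clone and at least 2.31-fold lower in the BT474 clone.

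Of the ANXA6 effectors, PRKCA (protein kinase C alpha) had log2 changes of -1.38 and -0.99 and RASA1 of -0.37 and -0.20. A dimmer PRKCA probe that did not reach the signal minimum stayed within 2-fold in the SkBr3 clone (log2 -0.49). It was at least 2.33-fold lower in the BT474 clone, where its signal was not well above background. SRI (sorcin), which binds ANXA7, had probes that disagreed, with log2 changes of 0.58 and 0.25 for the brighter and -0.67 and 1.07 for the other. PDCD6, which binds ANXA7 and ANXA11, gave 0.40 and -0.15, and TRIM72, a membrane repair protein, 0.21 and -0.53.

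**Figure D5:**
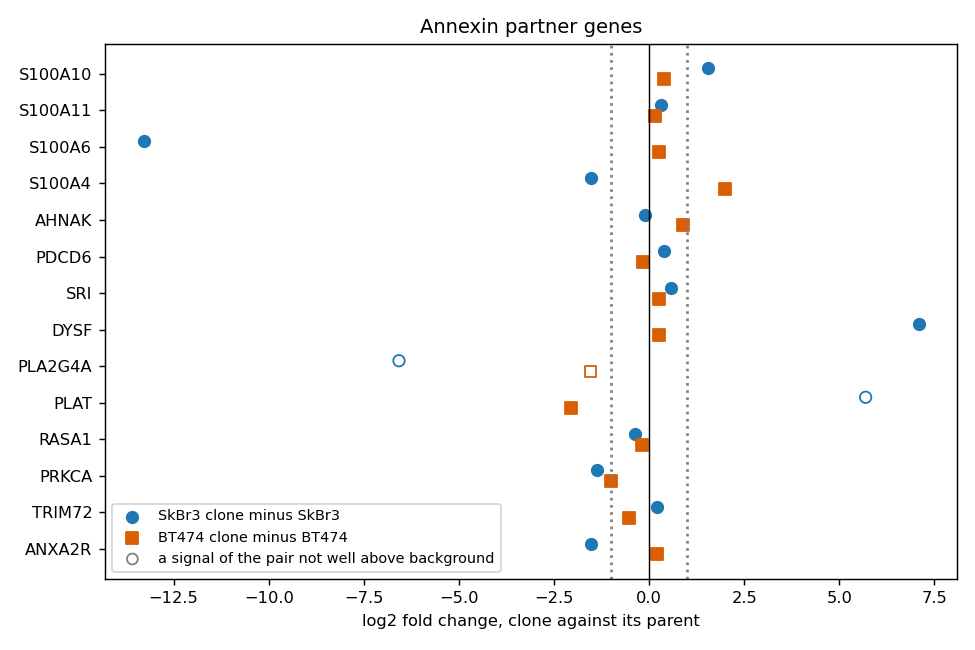
log2 fold change of each clone against its parent (x axis) for the 14 tested partner genes, 1 probe a gene, circles for SkBr3 and squares for BT474, open where a signal of the pair was not well above background, with dotted lines at 2-fold. S100A6 at -13.29 and DYSF at 7.09 in the SkBr3 clone stand farthest from 0.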

How the data were processed

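Total RNA from 4 cell populations (1 array each) was labelled with Cy3 and hybridised to Agilent Human Whole Genome 4 × 44K arrays. The authors deposited, per the file headers, Feature Extraction 10.1.1.1 output with background-subtracted spot intensities, and a table of log2 values whose clone-minus-parent differences differed from those of the intensities by a median of 0.000726. The column medians of that table were 0.12, -0.20, 0.11 and -0.05, and its centring is not stated. The study's methods name another software version, a second dye and LOWESS, which the files do not show.

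Spots of a probe were averaged, log2 values were taken and each array's 75th percentile over 41000 non-control probes was subtracted. Probes with a signal of at least 100 on 1 array were kept (25927), and a gene was its brightest such probe. With a signal of the pair at background, the fold was computed as a bound. Genes were named through RefSeq accessions. limma 3.58.1 in R 4.3.3 fitted resistance with the cell line as a block (two-sided, Benjamini-Hochberg adjustment). The 2-fold rule and limma were also run on simulated data, built from the means and spread of these arrays, with an equal change planted in both clones. Only the 2-fold rule was required to recover the planted probes, so that run is no check of what limma can detect. No test compares 1 array with 1 array, and the number of arrays limits the precision. Scaling, normalization, background correction, pseudocount, outlier spots, probe choice, fold threshold and filters were varied. Every member was named with all its probes, as were partner genes changed at least 2-fold or with probes that disagreed, and the 5 genes nearest to the member with the largest change shared by both clones; other partners were named after their values were seen. The members and lists were chosen with earlier results of these data known.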

Additional observations from a re-analysis of the deposited data

Results flagged for a closer look

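Opposite changes in the clones were found for 5 of the 33 annexin and partner probes compared (15.2%), beside 11.5% of all 17224 named probes. In each a change of at least 2-fold in 1 clone met a change of the opposite sign in the other, both larger than the spot error, and no difference between the clones was tested. The ANXA2 probe A_23_P146644 had log2 changes of 1.45 in the SkBr3 clone and -0.27 in the BT474 clone. The other ANXA2 probes did not share the fall, the brightest being level in the BT474 clone (0.01) and the dim one higher. S100A6 had -13.29 and 0.26, S100A4 -1.54 and 2.0, the dimmer SRI probe -0.67 and 1.07, and PLAT 5.69 and -2.05. The PLAT value in the SkBr3 clone is no measured size, since its parental signal, at background, allows only at least 13.0-fold higher.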

How the results depend on the processing

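Of the 180 log2 changes of single annexins under the alternatives, 174 moved by no more than the median difference between probes of 1 gene (0.28), 6 moved by more and none of the called values changed sign. Many of the 174 could hardly move. Neither change of filter altered the probe used for a tested member, and the mean over probes changes nothing for members with 1 probe. The deposited values differed by at most 0.000728. The count of 174 thus overstates how far the values were tried. ANXA1 ranged from 5.29 to 5.75 in the SkBr3 clone and from 0.84 to 1.18 in the BT474 clone, ANXA3 from 3.65 to 3.92 and ANXA6 from -2.54 to -2.35 in the SkBr3 clone. The count of annexins at least 2-fold higher in the BT474 clone was 0 with each array set to its median or at a 3-fold threshold, and 2 with the mean over a gene's probes, where the dim probe took ANXA2 to 1.70. Without a filter, 2 annexins were at least 2-fold lower in the SkBr3 clone, the added one being ANXA10, at background everywhere. The members' median in the BT474 clone (0.08) was -0.13 with arrays set to their median and 0.38 with normexp background correction and quantile normalization. Setting arrays to their median moved the median of all genes from -0.06 to 0.10 in the SkBr3 clone and from -0.09 to -0.29 in the BT474 clone, and the share of higher among changed genes from 63.0% to 46.6% in the BT474 clone. limma called 0 probes at an adjusted p under 0.05 in every design tried. At an unadjusted p under 0.05 it called 308 of 25927 probes without the block and 457 of 25927 with the slide in place of the cell line. Without a filter it called 2043 of 41000 probes, among them 2 of the 13 annexin probes. Signals near background limit ANXA10, A_32_P148345, PLAT and PLA2G4A.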

Other observations

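The study's own list of probes that were higher in both clones gives the name ANXA8L2 to 2 probes whose accessions matched no gene name here, so they were kept out of the family counts, and a list chosen on that outcome is no evidence of their direction. ANXA8L2 belongs to a group of near-identical ANXA8 copies and the probes are uncertain between them. The probe A_32_P105549 had signals of 6749 in SkBr3, 60583 in the SkBr3 clone, 44.6 in BT474 and 3994 in the BT474 clone, with log2 changes of 2.27 and 5.95. The probe A_23_P395054 had signals of 129, 1633, 17.5 and 76.6 in the same order, was 6.81-fold higher in the SkBr3 clone and, its BT474 signal not being well above background, at least 3.01-fold higher in the BT474 clone. Both probes were lower in BT474 than in SkBr3 and remained lower in the BT474 clone than in the SkBr3 clone.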
